A study of Mus musculus with 4 samples.

Results

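The genes described here encode 10 integrin subunits of microglia and leukocytes: the beta subunits Itgb2, Itgb1 and Itgb5 and the alpha subunits Itgam, Itgax, Itgal, Itga4, Itga6, Itga9 and Itgav. They were listed by name, each was matched to the brightest probe set carrying its symbol alone, and all 10 were found among the 17629 named genes of the arrays, with 1 probe set each. Microglia had been isolated from the whole brains of male C57BL/6J mice given OVA (the allergy group) or PBS (the control group), and were taken on the day following intranasal challenge, at P70 or P30 (postnatal days 70 and 30). The groups were OVA at P70, PBS at P70, OVA at P30 and PBS at P30, each 1 array of material pooled from 4 samples, so pooled animals give no spread between mice. With no replicates, no test was possible, and each difference below is a difference in log2 intensity between 2 arrays whose number limits the precision.

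Integrins are cell-surface adhesion receptors, each made of an alpha and a beta subunit that span the membrane together. The beta subunit Itgb2 (CD18) is the leukocyte one: it pairs with Itgam (CD11b) as complement receptor 3, with Itgax (CD11c) as complement receptor 4 and with Itgal (CD11a) as the ICAM receptor LFA-1. Itgb1 (CD29) pairs with Itga4, Itga6 and Itga9 in receptors for VCAM-1 and fibronectin, for laminins and for tenascin and osteopontin, while Itgav, in company with Itgb5 and other beta subunits, forms vitronectin receptors. CD11b is the standard surface marker by which microglia and other myeloid cells are recognised, and CD11c marks dendritic cells and subsets of microglia.

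Itgam and Itgax are neighbouring integrin genes on mouse chromosome 7 in the GRCm38.p6 gene table, followed by Itgad, and Itgal lies elsewhere on that chromosome. RefSeq promoter windows (GRCm38.p6) were matched for 7 of the 10 genes, Itgam, Itgax, Itga4, Itga9, Itgav, Itgb1 and Itgb5. Shown here are the 250 bases upstream of the start site of each gene that had a window and differed at least 1.5-fold in 1 or more comparisons below, so that the neighbours Itgam and Itgax, whose signals differed between groups in unlike ways, can be read against each other. Capitals mark GAGGAA, the core letters bound by the myeloid factor PU.1, or TTCCTC, the same letters on the other strand. No other motif was searched, and the core includes the GGAA shared by the wider ETS family.
Itgam: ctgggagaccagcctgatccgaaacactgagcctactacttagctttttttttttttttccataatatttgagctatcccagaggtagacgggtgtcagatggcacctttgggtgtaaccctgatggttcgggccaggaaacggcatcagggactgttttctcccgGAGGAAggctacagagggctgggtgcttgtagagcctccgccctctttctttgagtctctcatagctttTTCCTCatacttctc
Itgax: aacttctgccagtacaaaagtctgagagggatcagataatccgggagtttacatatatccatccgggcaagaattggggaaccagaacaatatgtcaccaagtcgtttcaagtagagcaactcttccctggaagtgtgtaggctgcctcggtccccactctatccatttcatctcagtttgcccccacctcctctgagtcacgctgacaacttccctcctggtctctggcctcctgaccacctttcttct
Itga4: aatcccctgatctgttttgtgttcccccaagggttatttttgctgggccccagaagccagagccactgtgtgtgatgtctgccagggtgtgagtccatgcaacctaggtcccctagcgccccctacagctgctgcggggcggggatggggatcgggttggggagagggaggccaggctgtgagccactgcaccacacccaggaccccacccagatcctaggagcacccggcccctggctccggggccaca
Itgav: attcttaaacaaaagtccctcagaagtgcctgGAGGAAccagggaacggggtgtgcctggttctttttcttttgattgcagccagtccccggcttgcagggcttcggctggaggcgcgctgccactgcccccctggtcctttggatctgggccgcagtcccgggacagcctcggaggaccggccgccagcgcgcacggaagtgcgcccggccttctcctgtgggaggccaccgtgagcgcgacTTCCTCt
These windows are chr7:128062390-128062639 for Itgam, chr7:128129300-128129549 for Itgax, chr2:79255176-79255425 for Itga4 and chr2:83724147-83724396 for Itgav, all on the plus strand. In the gene table Itgax begins at chr7:128129526, inside its window, so the last bases of that window lie within the gene there. The Itgam window ends just before the Itgam start of that table. The Itgam window held 2 matches, beginning 84 and 15 bases before the start site, and the Itgav window held 2, beginning 218 and 7 bases before it. The windows of Itgax and Itga4 held none. A match on either strand was held by 23.3% of all 32851 windows of that length, against 3 of the 7 integrin windows (the third was Itgb1), so a match is a description of letters and no sign of a bound site.

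Microglial markers gave clear signal, all 9 found having mean levels above the floor defined below. The same held for all 11 neutrophil markers and the 6 monocyte markers found, so this floor does not single out microglia. The marker Tmem119 was at 9.34 in OVA P70 and 9.14 in PBS P70, against 9.11 in OVA P30 and 9.26 in PBS P30, and P2ry12 was at 15.65 and 15.14 at P70, against 13.28 and 13.30 at P30, in OVA and PBS in each case. The floor, the median over genes of the mean log2 intensity, was 7.18, and 8815 genes at or above it are called expressed. Of the 10 integrin genes, 9 were expressed and Itgal was not. The arrays of the 2 ages differed broadly: 43% of expressed genes differed at least 1.5-fold between P70 and P30 in OVA and 32% in PBS. Most markers of neutrophils and monocytes were higher at P70. The summed intensity of 11 neutrophil markers was 761952 in OVA P70 and 893468 in PBS P70, against 29940 in OVA P30 and 78122 in PBS P30. That of the 6 of 8 monocyte markers found was 24272 and 21602 at P70, against 2045 and 1915 at P30, in OVA and PBS in each case. The 9 microglial markers summed to 654865 in OVA P70 and 627303 in PBS P70, below the neutrophil sums on those arrays. At P30 they summed to 491970 in OVA and 533242 in PBS. Which cells the integrin signals came from was not tested, and in bulk material fewer cells of a type and less RNA per cell cannot be told apart. Of the T and NK cell markers 4 of the 8 found were expressed, Cd3e and Cd3d being under the floor on every array and Cd3g between 7.28 and 7.86. Of the 7 endothelial and mural markers 1 was expressed, Pecam1 between 7.54 and 7.79, and Cldn5, Flt1 and Cdh5 were under the floor on every array.

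**Figure D1:**
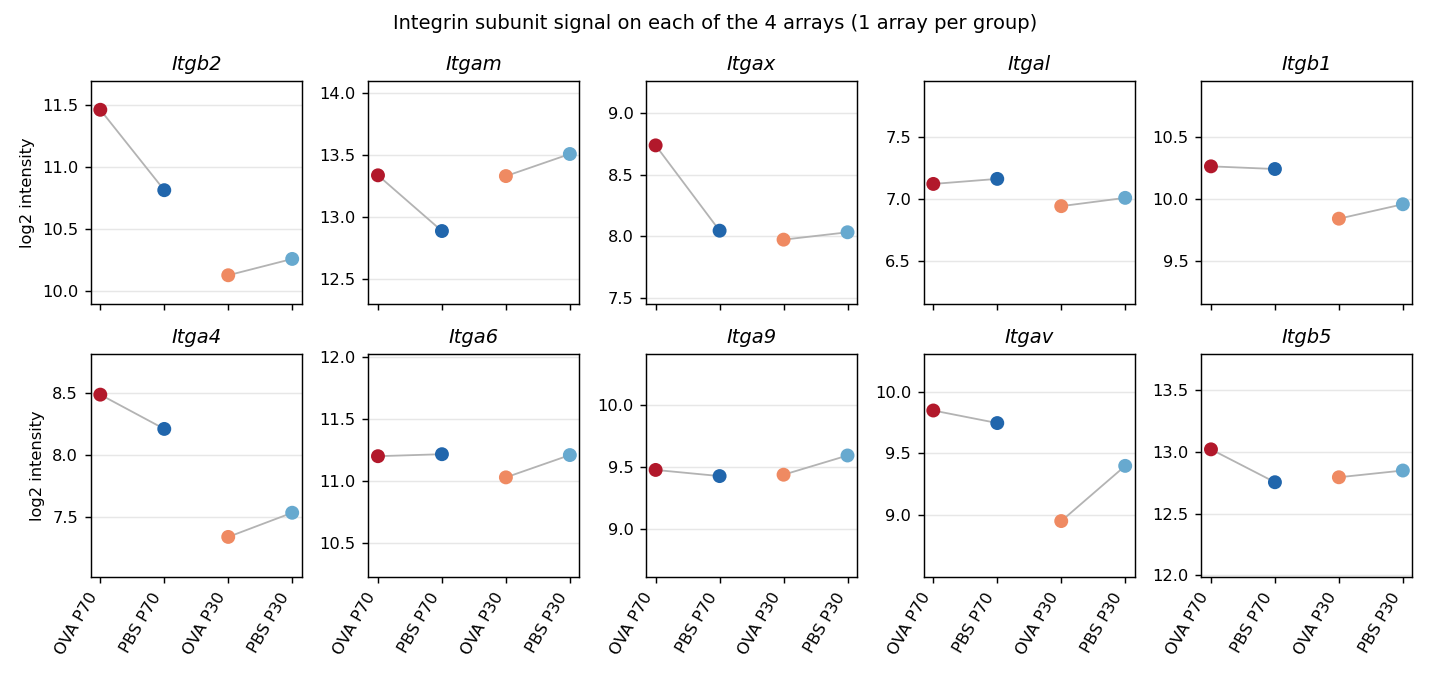
Log2 intensity (vertical axes, each spanning 1.8 units around its own centre) of the 10 integrin subunit genes on the 4 arrays, 1 point per array, with grey lines joining OVA and PBS of the same age. As deposited, all 10 genes were higher at P70 than at P30 in OVA, and 7 of the 10 in PBS. Itgal lay under the floor on all 4 arrays. Of expressed genes 76.7% were higher at P70 in OVA and 72.1% in PBS. Itgax stood apart in OVA P70, and Itgam was lowest in PBS P70.

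The comparison at P70 asked how integrin genes of the allergy group stood against controls in the older mice. Itgax was 1.61-fold and Itgb2 1.57-fold higher in OVA than in PBS. Itgam, at 1.37-fold, Itga4, at 1.21-fold, and Itgb5, at 1.20-fold, did not reach 1.5-fold, nor did Itgav, at 1.07-fold. Itgal, Itgb1, Itga6 and Itga9 lay within 0.05 of 0 on the log2 scale. Of the 10 genes, 2 were at least 1.5-fold higher and none was lower by that much, where 4% of expressed genes were at least 1.5-fold higher, 1.24% lower and 5.24% either way.

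Itgax had a log2 intensity of 8.74 in OVA P70 and 8.05 in PBS P70, against 7.97 in OVA P30 and 8.03 in PBS P30. The OVA P70 array alone was high, and the other 3 lay within 0.1 of each other. The P70 difference of 0.69 was exceeded by 2.28% of expressed genes. Under 3 other scalings it was 0.59 (median centring, in which the median of the expressed genes is set equal on all arrays), 0.64 (level centring, in which the running median of genes of like level is subtracted) and 0.66 (quantile normalization), at 1.5-fold or more in each.

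Itgb2, the shared beta subunit, was at 11.46 in OVA P70 and 10.81 in PBS P70, against 10.12 in OVA P30 and 10.26 in PBS P30. It was higher at P70 than at P30 in each treatment, with OVA P70 the highest array. Of expressed genes 76.7% were higher at P70 in OVA and 72.1% in PBS. The P70 difference of Itgb2, 0.65, was exceeded by 2.81% of expressed genes. It reached 0.79 after quantile normalization and came to 0.55 and 0.45, under 1.5-fold, after median and level centring.

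Itgam, the alpha subunit of complement receptor 3, was at 13.34 in OVA P70 and 12.89 in PBS P70, against 13.33 in OVA P30 and 13.51 in PBS P30. Here PBS P70 was the low array, and the OVA P70 value lay within 0.01 of that in OVA P30. The P70 difference was 0.45 (0.28 to 0.48 over the scalings). Itgal, the alpha subunit of LFA-1, was at 7.12 in OVA P70 and 7.16 in PBS P70, against 6.94 in OVA P30 and 7.01 in PBS P30. All 4 values lay under the floor and within 0.22 of each other, so the 3 alpha partners of Itgb2 did not share one difference: at P70 they stood at 0.69 for Itgax, 0.45 for Itgam and -0.04 for Itgal.

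Among the partners of Itgb1 the largest P70 difference was that of Itga4, which lets leukocytes bind VCAM-1 on vessel walls. It was at 8.49 in OVA P70 and 8.21 in PBS P70, against 7.34 in OVA P30 and 7.54 in PBS P30. The 2 ages did not overlap, where 76.7% of expressed genes were higher at P70 in OVA and 72.1% in PBS. The number of expressed genes without overlap was not counted. The OVA minus PBS difference of Itga4 at P70 was 0.28. Itgb1 itself was at 10.26 in OVA P70 and 10.24 in PBS P70, against 9.84 in OVA P30 and 9.96 in PBS P30, a P70 difference of 0.02. Both P70 values were again above both P30 values, by less than 1.5-fold.

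Itga6, whose product binds laminin, was at 11.20 in OVA P70 and 11.21 in PBS P70, against 11.03 in OVA P30 and 11.21 in PBS P30. Itga9, a receptor subunit for tenascin and osteopontin, was at 9.48 in OVA P70 and 9.43 in PBS P70, against 9.44 in OVA P30 and 9.59 in PBS P30. These 2 were the steadiest of the 10 genes as deposited, with ranges over the 4 arrays of 0.19 and 0.17, and their P70 differences were -0.02 and 0.05.

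Of the vitronectin receptor subunits, Itgav was at 9.85 in OVA P70 and 9.75 in PBS P70, against 8.95 in OVA P30 and 9.40 in PBS P30. Its lowest value was in OVA P30, and its P70 difference was 0.10. Itgb5 was at 13.02 in OVA P70 and 12.75 in PBS P70, against 12.79 in OVA P30 and 12.85 in PBS P30, a P70 difference of 0.27 with OVA P70 the highest array. Over all 10 genes the median P70 difference was 0.18, and over the 9 expressed it was 0.27. It was 0.09 for the expressed genes as a whole and 0.17 for those with mean levels of 9 to 14, the range that holds 7 of the 10. As deposited 8 of the 10 were above 0, where 65.0% of expressed genes were; all 10 were so after quantile normalization, and 5 after either centring. Both centrings gave Itgal, Itgb1, Itga6, Itga9 and Itgav values below 0.

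Marker genes of some other cell types were also higher in OVA P70, where Itgax and Itgb2 were, and others were not. The 8 markers of border-associated macrophages, which also carry leukocyte integrins, summed to 6969 in OVA P70 and 2555 in PBS P70. The first genes of that list, Pf4, Ms4a7 and Mrc1, differed by 1.97, 1.94 and 1.06 and Dab2 by 1.30, while Lyve1 was under the floor on both P70 arrays. Only these 4 of the 8 were at least 1.5-fold higher, where 4% of expressed genes were, and 1 lay below 0, at -0.03. The 6 dendritic cell markers summed to 3100 in OVA P70 and 1792 in PBS P70. Of these Cd209a was at 11.21 in OVA P70 and 9.91 in PBS P70, while the defining genes Flt3, Zbtb46 and Xcr1 were under the floor on all 4 arrays. Cd209a was the only 1 of the 6 above 0, with 5 below and a median of -0.04. The other of the 2 expressed dendritic markers was at -0.19. The 3 choroid plexus markers summed to 4287 in OVA P70 and 348 in PBS P70, with Ttr at 12.02 and 7.90 and both other markers, Folr1 and Kl, under the floor on all 4 arrays. In OVA the microglial sum was 1.04 times, the neutrophil sum 0.853 times and the monocyte sum 1.12 times that in PBS. All 6 monocyte markers found lay above 0, with a median difference of 0.52. Of these 2 were at least 1.5-fold higher, where 4% of expressed genes were. Of the 11 neutrophil markers 5 lay above 0 and 6 below. The brightest genes weigh most in a sum, and Cx3cr1, the brightest microglial marker, had the same value on both P70 arrays. Over the 9 microglial markers the median difference was 0.10, with 6 above 0 and 2 below. They ran from -0.21 to 0.51, P2ry12 being the highest. The part of any of these cells in the integrin differences was not tested.

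The same comparison at P30 gave small differences. All 10 integrin genes were lower in OVA than in PBS as deposited, by 0.05 to 0.45, where 53.7% of expressed genes were below 0. The median was -0.14 over the 10 and -0.16 over the 9 expressed. It was -0.01 for the expressed genes as a whole and -0.04 for those with mean levels of 9 to 14. Under quantile normalization and level centring 9 of the 10 were lower, Itgb5 standing at 0.07 and 0.01. None of the 10 differed at least 1.5-fold, where 1.54% of expressed genes did. The largest difference was that of Itgav, 0.45 lower in OVA and 0.43 lower under each of the other scalings; 2.35% of expressed genes lay below it. The differences of the leukocyte subunits were -0.13 for Itgb2, -0.18 for Itgam, -0.06 for Itgax and -0.07 for Itgal. Those of the Itgb1 group were -0.12 for Itgb1, -0.20 for Itga4, -0.18 for Itga6 and -0.16 for Itga9, and Itgb5 was at -0.05. The neutrophil sum in OVA was 0.383 times that in PBS, the border-associated macrophage sum 0.827 times, the microglial sum 0.923 times, the monocyte sum 1.07 times and the dendritic sum 1.25 times. The choroid plexus sum was 2.59 times that in PBS, with Ttr at 9.32 in OVA P30 and 7.45 in PBS P30. The part of these cells was not tested.

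**Figure D2:**
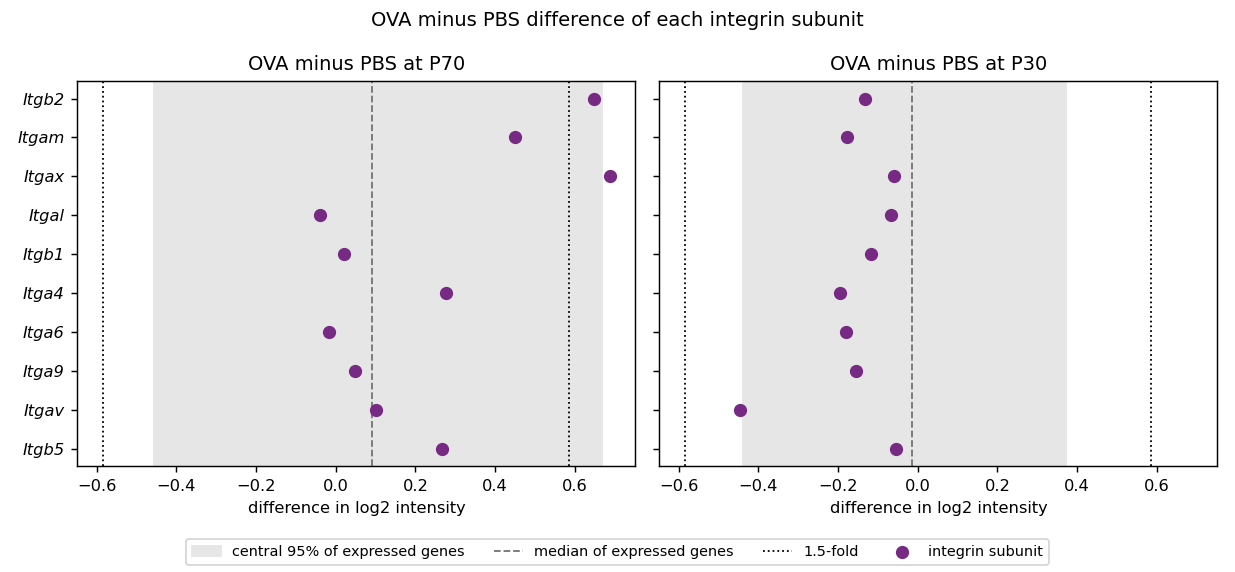
OVA minus PBS difference in log2 intensity (horizontal axis) of each integrin subunit gene at P70 (left) and P30 (right), 1 point per gene. The grey band is the central 95% of expressed genes, the dashed line their median and the dotted lines 1.5-fold. Itgax (0.69) and Itgb2 (0.65) passed 1.5-fold at P70, and at P30 all 10 lay below 0 with Itgav (-0.45) the lowest.

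Setting the OVA difference at P70 against that at P30 gave positive values for all 10 genes, where 63.8% of expressed genes were positive. The median was 0.40 over the 10 and 0.47 over the 9 expressed. It was 0.10 for the expressed genes as a whole and 0.19 for those of level 9 to 14. Itgb2 (0.78), Itgax (0.75) and Itgam (0.63) were at 1.5-fold or more, followed by Itgav (0.55), Itga4 (0.47), Itgb5 (0.32), Itga9 (0.20), Itga6 (0.16), Itgb1 (0.14) and Itgal (0.03). On this measure 10% of expressed genes reached 1.5-fold, 7.75% of them upward and 2.26% downward, as shares of all. Itgax stayed at 1.5-fold or more under every scaling (0.63 to 0.75), while Itgb2 ran between 0.51 and 0.86 and Itgam between 0.41 and 0.65. After level centring Itga6 (-0.09) and Itgb1 (-0.07) were below 0, as was Itgal (-0.10) after median centring. This value combines all 4 arrays and carries the error of each, which could not be estimated with 1 array per group.

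The comparison of P70 with P30 set the ages against each other within each treatment. In OVA, Itgb2 was 2.52-fold, Itga4 2.22-fold, Itgav 1.86-fold and Itgax 1.69-fold higher at P70. In PBS, Itga4 was 1.60-fold higher and Itgam 1.54-fold lower at P70, and Itgb2 was 1.47-fold higher. These counts stood close to or under the background: 4 of 10 genes at least 1.5-fold higher in OVA, where 38.6% of expressed genes were, and 1 of 10 higher in PBS, where 29.1% were. In PBS 1 of 10 was at least 1.5-fold lower, where 2.9% of expressed genes were, and in OVA none, where 4.34% were.

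As deposited, the age differences in OVA were 1.34 for Itgb2, 1.15 for Itga4, 0.89 for Itgav, 0.76 for Itgax, 0.42 for Itgb1, 0.23 for Itgb5, 0.18 for Itgal, 0.17 for Itga6, 0.04 for Itga9 and 0.01 for Itgam. In PBS they were 0.56 for Itgb2, 0.68 for Itga4, 0.35 for Itgav, 0.01 for Itgax, 0.28 for Itgb1, -0.09 for Itgb5, 0.15 for Itgal, 0.01 for Itga6, -0.17 for Itga9 and -0.62 for Itgam. The subunit Itgb2 and its partner Itgam thus differed in direction in PBS, and 2.54% of expressed genes lay below Itgam there.

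The sign of an age difference depended on the scaling for most of these genes. Expressed genes as a whole were higher at P70, by a median of 0.39 in OVA and 0.26 in PBS, and more so among those with mean levels of 9 to 14 (0.85 and 0.65). Itga4 was higher at P70 under every scaling, by 0.73 to 1.27 in OVA and 0.38 to 0.75 in PBS. Itgam was lower at P70 in PBS under every scaling (-1.63 to -0.45), but in OVA its value ran between -1.22 and 0.20. Itgb2 was higher at P70 in OVA under every scaling (0.31 to 1.34), and in PBS it was at -0.23 after level centring. After that centring Itgam, Itga6, Itga9 and Itgb5 were at least 1.5-fold lower at P70 in both treatments, Itgb5 standing at -1.01 in OVA and -1.11 in PBS, and no gene but Itga4 in OVA was at least 1.5-fold higher. The neutrophil and monocyte sums stood 25.4 and 11.9 times higher at P70 in OVA and 11.4 and 11.3 times higher in PBS, and the border-associated macrophage sum 3.74 and 1.13 times. The brightest genes weigh most in such sums. The 8 border-associated macrophage markers went both ways, with 5 above 0 and 3 below in OVA. In PBS 3 were above 0 and 5 below. Of the 11 neutrophil markers 9 were at least 1.5-fold higher at P70 in each treatment. Of the 6 monocyte markers 6 were so in OVA and 5 in PBS, where 38.6% and 29.1% of expressed genes were. The first 3 genes of the neutrophil and monocyte lists were above the floor on every array. All these cells are known to carry Itgb2 and Itgam, and their part in these differences was not tested.

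**Figure D3:**
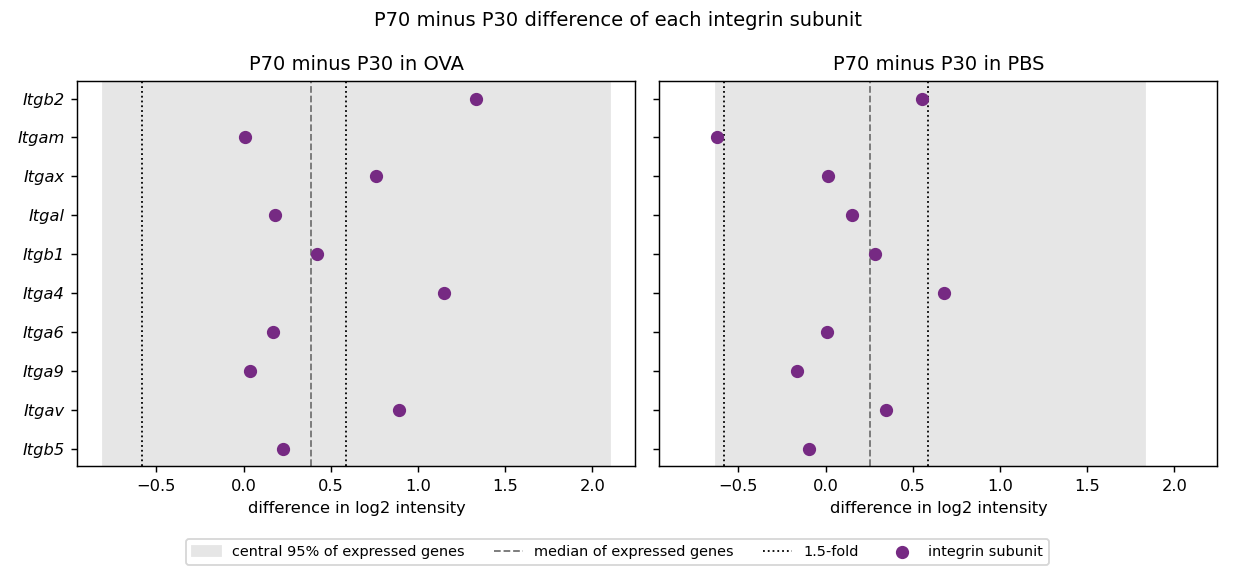
P70 minus P30 difference in log2 intensity (horizontal axis) of each integrin subunit gene in OVA (left) and PBS (right), 1 point per gene, with the central 95% of expressed genes in grey, their median dashed and 1.5-fold dotted. Most genes lay near or left of the median of expressed genes; Itgb2 (1.34) and Itga4 (1.15) led in OVA, and Itgam (-0.62) was lowest in PBS.

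**Figure D4:**
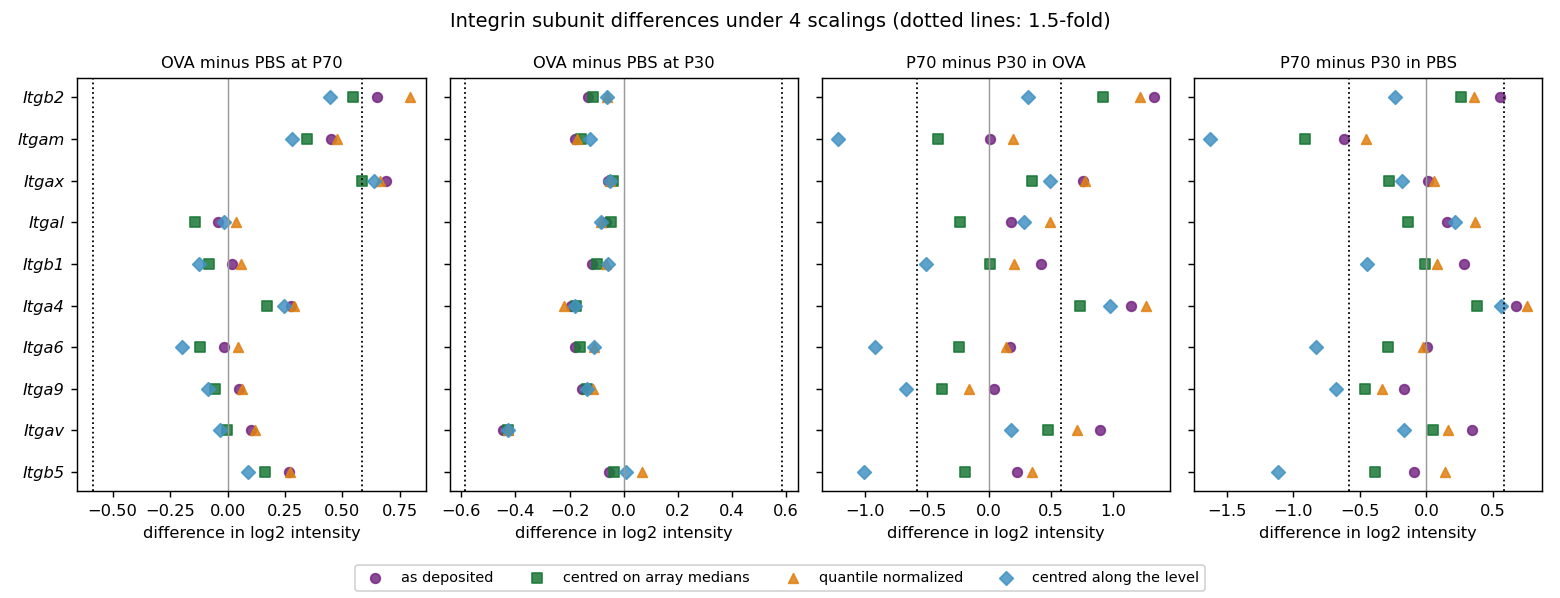
Differences in log2 intensity (horizontal axes) of the 10 integrin subunit genes in the 4 comparisons as deposited and under 3 other scalings, 1 symbol per scaling, with 1.5-fold dotted. The OVA minus PBS values moved by at most 0.20 (Itgb2 at P70), whereas the age values moved by up to 1.24 (Itgb5 in OVA).

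Itgb2 and Itga4 were the members whose signal spanned at least 1 log2 unit over the 4 arrays (1.34 and 1.15). The expressed genes with the profiles closest to Itgb2, by root mean square distance between centred values over the 4 arrays, were the tubulin gene Tuba1c (0.02), Btbd9 (0.02) and the ribosomal pseudogene Rps24-ps2 (0.04). Tuba1c and Rps24-ps2 have near-identical copies and are uncertain. Those closest to Itga4 were the mitochondrial ribosomal protein gene Mrps9 (0.01), Zranb1 (0.02) and Lrrc40 (0.02). With 4 arrays such likeness is common, since 95 expressed genes lay within 0.1 of Itgb2 and 356 within 0.1 of Itga4.

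The other genes of the integrin family gave little signal. Of 16 further subunits 15 were measured by a probe set of their own, and 5 of these were expressed. None of the 5 differed at least 1.5-fold between OVA and PBS, where 5.24% of expressed genes did at P70 and 1.54% at P30. The platelet subunit Itgb3, a partner of Itgav, was at 8.18 in OVA P70 and 8.20 in PBS P70. At P30 it was at 7.58 in OVA and 7.76 in PBS. Its age difference in OVA, 0.60, was the only one of the 5 at 1.5-fold as deposited, where 38.6% of expressed genes were higher by that much. After median centring the single call was a lower one, and after level centring there was none. Itga5, the fibronectin receptor subunit, was at 8.43 in OVA P70 and 8.25 in PBS P70, against 8.28 in OVA P30 and 8.34 in PBS P30. The platelet subunit Itga2b was at 7.11 in OVA P70 and 7.27 in PBS P70, against 7.53 in OVA P30 and 7.36 in PBS P30, at or near the floor throughout. Itgad, the neighbour of Itgax, stayed under the floor, between 6.94 and 7.10.

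Cytoplasmic activators and linkers, which switch integrins on and tie them to actin, gave no difference of 1.5-fold between treatments. Of 26 listed genes 25 were measured and 19 expressed, and none of the 19 reached that size at either age, where 5.24% of expressed genes did at P70 and 1.54% at P30. For the 9 expressed of the 10 subunits the median difference was 0.27 at P70 and -0.16 at P30. That of the 19 was 0.17 and -0.09, against 0.09 and -0.01 for the expressed genes. At P70 the largest belonged to Rsu1, a partner of the linker complex around integrin-linked kinase (0.39), and Rap1b, a small GTPase that activates integrins (0.39). At P30 they belonged to the adaptor gene Skap2 (-0.27) and to Itgb1bp1, which encodes a protein that binds the Itgb1 tail (-0.26). The 2 probe sets of Itgb1bp1 disagreed, the dimmer one giving 0.59 at P30, so that value is uncertain. Between ages 7 of the 19 were at least 1.5-fold higher at P70 in OVA and 7 in PBS, where 38.6% and 29.1% of expressed genes were, led in each by the GTPase gene Rap1a (2.82-fold and 2.16-fold). Apbb1ip, whose product couples Rap1 to talin, was at 13.34 in OVA P70 and 13.10 in PBS P70, against 12.94 in OVA P30 and 13.08 in PBS P30.

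Kinases and exchange factors downstream of integrins were measured for 8 of 11 listed genes, and 6 were expressed. None of the 6 differed at least 1.5-fold between OVA and PBS, where 5.24% of expressed genes did at P70 and 1.54% at P30. The largest differences were those of the exchange factor gene Vav1 at P70 (0.51) and of Ptk2b, which encodes the kinase Pyk2, at P30 (-0.30). The Src-family kinase gene Fgr, used by myeloid cells under Itgb2, was at 7.94 in OVA P70 and 7.60 in PBS P70, against 7.03 in OVA P30 and 7.09 in PBS P30. Its P30 values were under the floor, so the sizes of its age differences (0.92 in OVA and 0.52 in PBS) are uncertain. Between ages 3 of the 6 were at least 1.5-fold higher at P70 in OVA, where 38.6% of expressed genes were. These 3 were Pik3cg (0.97), Fgr and the Tec-family kinase gene Btk (0.71). In PBS 1 of the 6, Btk (0.59), was so, where 29.1% of expressed genes were.

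Of 27 ligands and partners 24 were measured and 7 expressed. None of the 7 differed at least 1.5-fold between OVA and PBS, where 5.24% of expressed genes did at P70 and 1.54% at P30. Icam1, a ligand of LFA-1 and complement receptor 3, was at 8.32 in OVA P70 and 8.05 in PBS P70, against 8.22 in OVA P30 and 8.40 in PBS P30, with differences of 0.26 at P70 and -0.19 at P30. Nrros, whose product anchors latent TGF-beta on microglia for activation by Itgav receptors, was at 9.47 in OVA P70 and 9.43 in PBS P70, against 9.10 in OVA P30 and 9.53 in PBS P30. Its P30 difference was -0.43, the largest of the 7. Any link with the -0.45 of Itgav was not tested. Cd47, an integrin-associated protein known as a signal against phagocytosis, and Fn1, which encodes fibronectin, were higher at P70. Cd47 differed by 1.86 in OVA and 1.75 in PBS, and Fn1 by 1.30 and 1.18. These were the 2 of the 7 at least 1.5-fold higher, where 38.6% of expressed genes were in OVA and 29.1% in PBS. F11r, which encodes the junctional ligand JAM-A, was lower at P70, by 0.56 in OVA and 0.54 in PBS. Vcam1, the Itga4 ligand, was under the floor on every array, between 6.82 and 7.07.

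**Figure D5:**
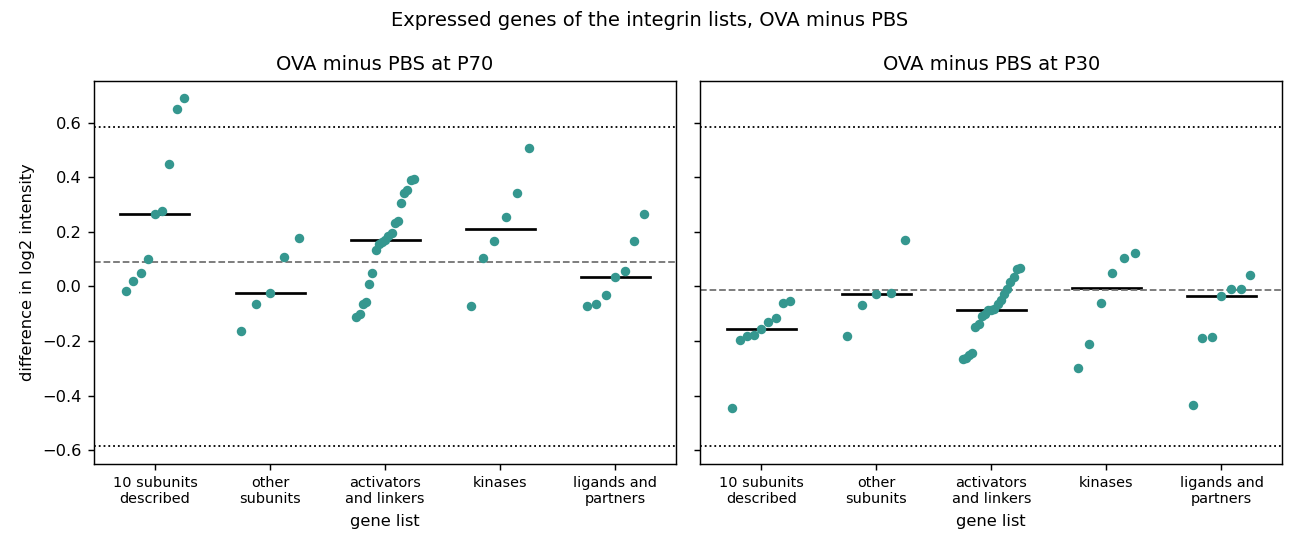
OVA minus PBS difference in log2 intensity (vertical axis) of the expressed genes of each integrin list at P70 (left) and P30 (right), 1 point per gene, spread sideways by rank, with a bar at each list's median, the median of all expressed genes dashed and 1.5-fold dotted. Only Itgax and Itgb2 at P70 passed 1.5-fold among the expressed genes of the 5 lists drawn.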

How the data were processed

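Expression arrays were made from 4 groups of microglia, 1 array each. Per the labels' protocols, total RNA was amplified and labelled with biotin by a WT Pico kit. Each deposited value is a linear intensity that the authors had normalized and summarised per probe set; per the submitters' processing notes, RMA and Affymetrix Expression Console 1.4.1 were used, without a role for each. The linear scale was read from the values, since RMA writes log2. How arrays were scaled to each other, and the genome build, are not given in the sources used here.

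Log2 values were taken with no further scaling. Of 65956 probe sets, 30604 carried 1 symbol, 2146 several and 33206 none here; 827 symbols were updated by Entrez ID through the RefSeq table of GRCm38.p6. Predicted genes, small RNAs, chemosensory receptors and antigen receptor segments (12741 probe sets) were left out. Differences were counted at 1.5-fold, the background being the 8815 expressed genes. The counting was tested on simulated data. The members, gene lists and alternatives were chosen with earlier results of these data known. All 10 members are named. From each other list the rule names the 2 expressed genes with the largest difference in each comparison and the 2 with the highest level; the profile rule names the 3 closest genes, and marker lists their first 3. Other genes named (Itgad, Vcam1, Xcr1, Lyve1, Dab2, Pecam1) were picked after their values were seen. Alternatives were median centring (over expressed genes), quantile normalization over all probe sets, level centring (running median of 501 genes), the mean over probe sets, and the filter on dim genes (none, or the 75th percentile). Python 3.11.15 with pandas 2.3.3 was used.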

Additional observations from a re-analysis of the deposited data

Results flagged for a closer look

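The OVA minus PBS difference had opposite directions at P70 and P30 in 8 of the 10 genes as deposited, where 51.5% of expressed genes did so, and none of these contrasts was tested, since each group is 1 array. The P70 difference minus the P30 difference was 0.78 for Itgb2, 0.75 for Itgax, 0.63 for Itgam, 0.55 for Itgav, 0.47 for Itga4, 0.32 for Itgb5, 0.20 for Itga9 and 0.14 for Itgb1. The P70 minus P30 difference had opposite directions in OVA and PBS in 3 genes, Itgam (0.01 in OVA and -0.62 in PBS), Itga9 (0.04 and -0.17) and Itgb5 (0.23 and -0.09). The difference between the treatments equals that between the ages by construction, 0.63, 0.20 and 0.32 in the order given. As deposited 15.1% of expressed genes had such opposite age directions. The counts depend on the scaling. For OVA minus PBS, 5 genes had opposite directions after median centring (Itgam, Itgax, Itga4, Itgb2 and Itgb5), 4 after level centring (the same without Itgb5) and 9 after quantile normalization. Of expressed genes 51.2%, 49.5% and 48.6% did so, in that order. For age, Itgam, Itga9 and Itgb5 were below 0 in both treatments after either centring. Other genes had opposite directions instead, Itgax and Itgb1 after median centring and Itgax, Itgav and Itgb2 after level centring. Of expressed genes 15.1% and 19.8% did so, in that order.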

How the results depend on the processing

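No paired analysis was possible because each group has 1 array. Every one of the 10 genes has 1 probe set, so averaging probe sets changed none of their values. At P30 no scaling brought any of the 10 to 1.5-fold. At P70 the 2 genes at 1.5-fold in OVA were 1, Itgax, after either centring, and the median of 0.18 became 0.081 after centring on array medians and 0.038 along the level. For age in OVA the 4 genes became 2 after centring on array medians and 5 (1 higher, 4 lower) along the level, with medians of -0.093 and -0.16 in place of 0.32. For age in PBS the 2 genes became 1 after centring on array medians, 1 after quantile normalization and 4, all lower, along the level, with medians of -0.21 and -0.34 after the 2 centrings in place of 0.08. For the P70 minus P30 difference of the OVA differences, 1 gene in place of 3 was at 1.5-fold along the level, and the median of 0.40 became 0.27 on array medians and 0.24 along the level. The cause of these shifts was not tested.

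Of the expressed genes past 1.5-fold at P70, 76.4% were higher in OVA as deposited, 52.6% and 50.7% after centring on array medians and along the level, and 87.7% after quantile normalization. For age these shares were 89.9%, 58.1%, 55.2% and 92.0% in OVA and 90.9%, 67.5%, 57.6% and 91.1% in PBS. The number past 1.5-fold was 297 at P70 with the stricter filter, which tests fewer genes (462 as reported), and 2187 (3787 as reported) and 1804 (2819 as reported) for age in OVA and PBS along the level. Centring on array medians moved the median of expressed genes by -0.10 at P70, -0.42 for age in OVA and -0.30 for age in PBS. Signal over background was not analysed here, which limits what can be said of Itgal and other dim genes.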
